A study of Homo sapiens with 20 samples.

Results

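HOX genes encode homeodomain transcription factors that stand in 4 chromosomal clusters, HOXA to HOXD. In embryos the order of the genes in each cluster follows the order of their domains from head to tail, with low-numbered genes acting anteriorly and high-numbered genes posteriorly, and the pattern of HOX genes that stay active in an adult tissue is known as its HOX code. In the adult large intestine, posterior HOXA and HOXB genes remain active in the epithelium, and Polycomb and trithorax proteins keep the clusters silent or active through cell division. All gene symbols of the count table made of HOX, a cluster letter from A to D and a number were taken as members, which gave 36 of the 17113 genes listed. They were 11 HOXA, 9 HOXB, 9 HOXC and 7 HOXD genes.

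Their transcripts were measured in RNA of extracellular vesicles and in total RNA of cells from 10 human colorectal cancer lines, with 1 vesicle library and 1 cell library per line (20 libraries). The design text asks whether the RNA of vesicles, the membrane-bound particles that cells shed, mirrors that of the cells that released them. LS1034 and LS513 are labelled as cecum, and LoVo, COLO-201, SNU-C1, HT-29, WiDr, HCT 116, LS123 and SW480 as colon. All lines were untreated, and each was kept in DMEM or RPMI-1640 with fetal bovine serum. Vesicle RNA was isolated with an Invitrogen exosome kit and amplified by SMART-Seq v4 before Nextera XT preparation, whereas cell RNA went through a Roche KAPA stranded kit with RiboErase, so kit and compartment cannot be told apart. Each line is 1 culture in the labels, so the line is the unit of replication (n = 10) and the p-values measure the spread between lines. HT-29 and WiDr are known to derive from the same patient, so the 10 lines are not all independent. HCT 116 and LS123 cells were also more alike than other pairs, with an r of 0.974 over 17077 genes other than HOX genes (0.986 for HT-29 and WiDr, 0.939 for the next pair, median 0.899), and whether these cultures are independent was not tested. Results are therefore also given without WiDr and LS123 among the alternatives. In bulk RNA, fewer cells with a transcript and less transcript per cell cannot be told apart.

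Vesicle libraries held 1.75 to 24.4 M counts and cell libraries 24.8 to 37.4 M. At 3 counts, the limit that a count of 0 allows, this is 0.123 to 1.72 CPM (counts relative to the total of the library) in vesicles and 0.0802 to 0.121 CPM in cells, for counting error alone. Vesicle libraries also held reads on genes that the cells did not express. From the 2075 genes that never exceeded 10 counts in the cells of a line, a background count was predicted for each gene from its exonic length and GC content, and this background came to 1.87 to 45.8% of all counts in vesicle libraries and 0.0329 to 0.154% in cell libraries. It was below 10% in SW480 (1.87%), COLO-201 (2.13%), HT-29 (2.30%), HCT 116 (3.03%) and LS513 (6.57%), which are called the lower-background lines. It was higher in LS1034 (17.3%), LoVo (22.1%), WiDr (27.5%), LS123 (37.9%) and SNU-C1 (45.8%). The 10 colon epithelium markers examined summed to 3080 to 17749 CPM in vesicles (median 7912) and 3018 to 19199 CPM in cells (median 13755), with 5 of the 10 at 1 CPM or more in every cell library. The markers did not behave alike. EPCAM averaged 299 CPM in vesicles and 2131 CPM in cells, and CDH1 36.3 and 490 CPM, both lower in vesicles in every line. These 2 were called lower by the edgeR test described below, and 0 of the 10 were called higher.

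The homeobox, which encodes the DNA-binding homeodomain, is alike in sequence among HOX genes. Each of the 36 members has a homeobox of 180 bp in a protein-coding GENCODE transcript. The last 60 bases of the homeobox are shown for group 9 genes of 3 clusters, because HOXB9 is among the most abundant members and HOXC9 and HOXD9 are line-restricted. Capitals mark the 47 of 60 positions that are the same in the 3 genes shown.
HOXB9: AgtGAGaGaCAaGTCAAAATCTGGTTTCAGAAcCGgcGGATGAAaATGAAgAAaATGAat
HOXC9: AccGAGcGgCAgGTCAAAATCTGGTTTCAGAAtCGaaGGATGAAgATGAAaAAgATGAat
HOXD9: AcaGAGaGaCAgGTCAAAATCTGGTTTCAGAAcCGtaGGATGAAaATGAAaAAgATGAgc
Identity over the whole homeobox was 82.2 to 84.4% among these 3 genes. The group 13 genes, the most posterior ones, were less alike, with 39 of 60 positions shared by all 4 over the same stretch.
HOXA13: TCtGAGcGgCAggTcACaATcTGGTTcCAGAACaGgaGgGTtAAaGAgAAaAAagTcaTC
HOXB13: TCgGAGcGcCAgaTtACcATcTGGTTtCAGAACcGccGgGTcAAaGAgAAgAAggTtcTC
HOXC13: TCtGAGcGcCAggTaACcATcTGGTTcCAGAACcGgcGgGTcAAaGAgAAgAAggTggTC
HOXD13: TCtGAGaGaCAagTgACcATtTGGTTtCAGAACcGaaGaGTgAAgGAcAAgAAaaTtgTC
Over the 37 pairs of members of the same group, the longest exact shared run was 12 to 62 bp with a median of 19 bp. It was taken over the longest protein-coding transcript of each gene, untranslated parts included. The longest was that of HOXB3 and HOXD3 at 62 bp, and HOXB9 and HOXD9 shared 40 bp. Reads inside such runs are uncertain, since the read length and multi-mapping rule are not given in the sources used here.

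In GRCh38 (GENCODE release 29), the HOXA members lie on the minus strand of chromosome 7 between positions 27092993 and 27200106, and the HOXB members on the minus strand of chromosome 17 between 48540894 and 48729178. HOXC members lie on the plus strand of chromosome 12 between 53938765 and 54056030, and HOXD members on the plus strand of chromosome 2 between 176092891 and 176190907. Exons of some members overlap other annotated genes. For HOXD4 80.5% and for HOXD3 62.2% of the exonic bases are shared with a readthrough gene on the same strand, for HOXC5 59.9% are shared on the same strand with a coding gene (33.9%) or a noncoding entry of the same symbol, and for HOXA7 62.5% and HOXD1 58.1% are covered by antisense genes. Counts of these 5 members are uncertain to that extent, because neither the strand setting nor the handling of overlaps in the counting is given in the sources used here.

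RefSeq promoter windows (GRCh38.p14, 250 bases before to 50 after a start site) were at hand for 17 of the 36 members, as 24 windows. They held a median of 23 CpG dinucleotides, against 14 in all 35097 windows. The core motif of caudal proteins, CATAAA on either strand, was in windows of HOXA3, HOXA9 and HOXD8, which is 3 of 24 HOX windows beside 10.6% of all windows. The joint HOX-PBX motif TGATNNAT on either strand was in windows of HOXA2 and HOXD11, which is 2 of 24 beside 7.40%. The motifs were searched separately and no HOX window held both. These counts describe letters in the windows and no binding was measured. The windows of HOXA9, present in all lines, and HOXD8, present in 4, are shown with the caudal core in capitals, and the window that RefSeq gives to HOXC4 and HOXC5 alike is shown because these neighbours were present in WiDr cells together.
HOXA9, chr7:27165488-27165787, minus strand: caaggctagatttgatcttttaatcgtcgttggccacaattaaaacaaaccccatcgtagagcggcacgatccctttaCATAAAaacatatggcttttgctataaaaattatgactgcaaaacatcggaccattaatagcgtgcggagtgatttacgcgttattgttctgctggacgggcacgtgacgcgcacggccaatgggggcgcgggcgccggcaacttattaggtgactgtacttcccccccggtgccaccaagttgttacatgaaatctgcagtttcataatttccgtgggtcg
HOXD8, chr2:176129455-176129754, plus strand: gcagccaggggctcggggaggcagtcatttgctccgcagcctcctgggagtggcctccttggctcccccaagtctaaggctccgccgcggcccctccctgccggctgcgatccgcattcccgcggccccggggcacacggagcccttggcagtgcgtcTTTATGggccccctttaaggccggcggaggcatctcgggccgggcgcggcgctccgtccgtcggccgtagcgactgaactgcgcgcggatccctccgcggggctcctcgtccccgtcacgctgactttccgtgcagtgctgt
HOXC4 and HOXC5, chr12:54016638-54016937, plus strand: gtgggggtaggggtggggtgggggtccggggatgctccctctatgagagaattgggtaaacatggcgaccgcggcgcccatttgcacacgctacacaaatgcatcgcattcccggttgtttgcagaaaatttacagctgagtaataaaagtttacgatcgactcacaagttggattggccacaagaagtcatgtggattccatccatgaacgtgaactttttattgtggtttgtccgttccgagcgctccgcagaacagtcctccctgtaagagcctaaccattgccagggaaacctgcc
In HOXD8 the core stands on the opposite strand and reads TTTATG.

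A member was called on in a line at 1 CPM or more in its cell library and off otherwise. By this rule 13 members were on in all 10 lines, 21 in some and 2, HOXC12 and HOXD4, in none. The 13 were HOXA3, HOXA5, HOXA7, HOXA9, HOXA10, HOXA11 and HOXA13 together with HOXB3, HOXB6, HOXB7, HOXB8, HOXB9 and HOXB13, and no HOXC or HOXD gene was among them. The number on per line ran from 16 in SNU-C1 over 17 in LS513, 18 in COLO-201, 20 in LS1034, 21 in LoVo, 22 in HCT 116, 23 in HT-29 and in LS123 and 25 in WiDr to 29 in SW480. HOXA members on were 8 to 10 of 11 per line and HOXB members 7 to 9 of 9, whereas HOXC members on were 0 in SNU-C1 to 6 of 9 in SW480. Of the 7 HOXD members, 0 were on in COLO-201, SNU-C1, HT-29 and LS513, and 4 were on in LoVo and in SW480.

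Per kilobase of exon, which allows genes to be compared, the mean level in cells was highest for HOXB7 (31.1 CPM per kb), followed by HOXA9 (28.3), HOXB9 (22.4), HOXA10 (12.5), HOXA13 (10.98), HOXB6 (8.997) and HOXA11 (7.56). All 7 belong to groups 6 to 13 of the HOXA and HOXB clusters. Summed over members, transcripts came to 345 to 609 CPM in vesicles and to 237 (COLO-201) to 889 CPM (LS1034) in cells. HOXA genes made up 45.2 ± 6.01% of the HOX sum in vesicles and 55.1 ± 10.3% in cells (SD, n = 10 each), and HOXB genes 39.3 ± 7.61% in vesicles and 40.0 ± 11.1% in cells. HOXC genes made up 9.07 ± 4.17% in vesicles and 3.15 ± 3.04% in cells, and HOXD genes 6.35 ± 4.29% in vesicles and 1.80 ± 2.61% in cells. The background expected for the members was 7.77% of their summed vesicle counts in COLO-201 and 107% in SNU-C1, so the vesicle shares include background to very different extents.

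**Figure D1:**
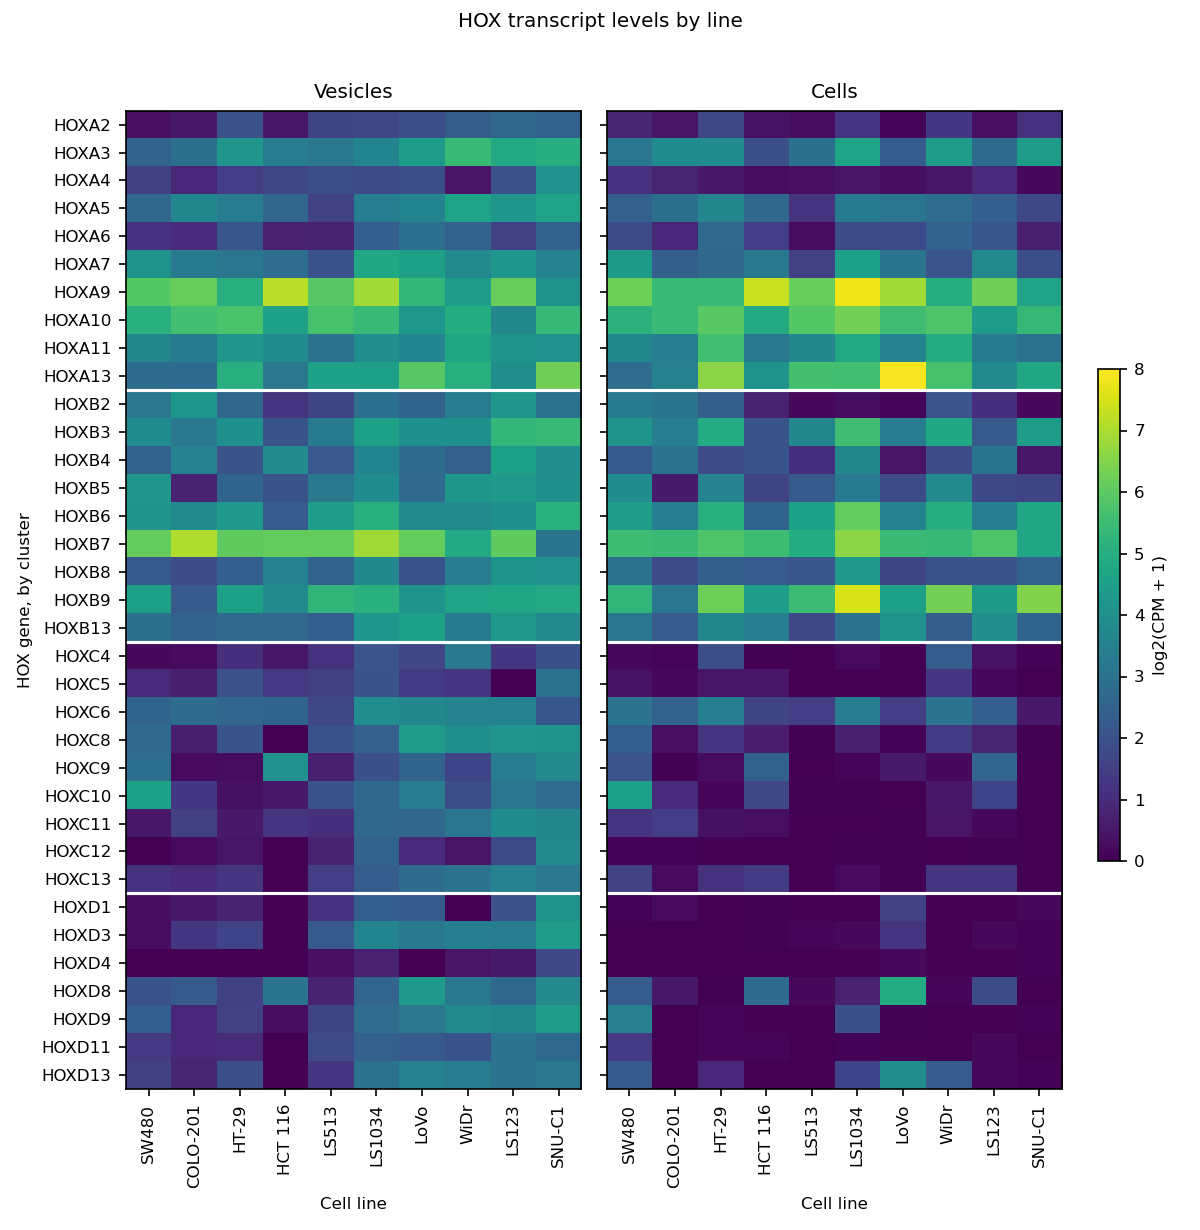
Levels of 35 of the 36 members as log2(CPM + 1), genes by cluster in rows and lines in columns, with vesicles on the left and cells on the right. Lines are ordered by rising vesicle background from SW480 to SNU-C1. In cells the HOXC and HOXD rows other than HOXC6 are dark in most lines, and in vesicles they brighten toward the lines of higher background.

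The cell lines resembled each other in their HOX codes to different degrees. Across the 36 members, log2(CPM + 1) correlated between the cells of any pair of lines with Pearson's r of 0.632 (LoVo and SW480) to 0.977 (HT-29 and WiDr), with a median of 0.824 over 45 pairs. HT-29 and WiDr differed in the on or off state of 2 members. HCT 116 and LS123 had an r of 0.967 and differed in the state of 1 member, and SNU-C1 and LS513 had 0.959 and differed in 3. LoVo and SW480 differed in 12. These are descriptions, since genes are not replicates and the members share a library.

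Among posterior HOXA genes, HOXA9, a regulator of blood progenitors, was on in every line. In vesicles HOXA9 measured 58.7 CPM in SW480, 69.9 in COLO-201, 31.3 in HT-29, 139 in HCT 116, 60.2 in LS513, 116 in LS1034, 37.9 in LoVo, 21.2 in WiDr, 69.4 in LS123 and 16.0 in SNU-C1. In cells it measured 75.1 CPM in SW480, 41.1 in COLO-201, 41.7 in HT-29, 158 in HCT 116, 69.4 in LS513, 223 in LS1034, 118 in LoVo, 30.9 in WiDr, 76.6 in LS123 and 23.2 in SNU-C1. HCT 116 and LS1034 were the top lines in either compartment, and SNU-C1 was the lowest in either. In SNU-C1 vesicles HOXA9 had 28 counts where 28.0 were expected from background, so its level there was not above background. HOXA9 had the highest Pearson's r of vesicle with cell levels over the lines, 0.82, with a Spearman's rho of 0.72 on log2(CPM + 1) (n = 10 lines; the members of a library share its depth and background). By rho HOXA13 (0.79) and HOXD13 (0.75) were higher. With the expected background subtracted the r of HOXA9 was 0.75, below that of HOXB2 (0.87) among others. The r of HOXD11 was then 0.99, but it rests on SW480 alone. HOXD11 had 34 counts in SW480 vesicles where 33.7 were expected, and subtraction left none in the other lines. The prediction ran high in that library, where members off in SW480 cells had together 40 counts and 148 were expected. COLO-201 was the only line with more HOXA9 in vesicles than in cells.

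HOXA10, a posterior gene needed in the uterus of mice, ranged from 12.2 CPM in LS123 to 51.9 CPM in HT-29 vesicles with a median of 36.2, and from 20.6 CPM in LS123 to 78.8 CPM in LS1034 cells with a median of 43.5. LS123 was the lowest line in vesicles and in cells alike, but its vesicles had 25 HOXA10 counts where 39.7 were expected from background. HOXA13, the terminal HOXA gene, acts in mouse limb, hindgut and genital development. In vesicles HOXA13 measured 6.13 CPM in SW480, 5.91 in COLO-201, 32.3 in HT-29, 8.02 in HCT 116, 22.6 in LS513, 21.96 in LS1034, 59.2 in LoVo, 31.7 in WiDr, 14.7 in LS123 and 76.6 in SNU-C1. In cells it measured 6.26 CPM in SW480, 10.4 in COLO-201, 97.1 in HT-29, 15.7 in HCT 116, 48.4 in LS513, 47.2 in LS1034, 243 in LoVo, 50.1 in WiDr, 12.8 in LS123 and 27.1 in SNU-C1. LoVo cells stood above all other cells, and LoVo vesicles were second to those of SNU-C1. In SNU-C1 vesicles HOXA13 had 134 counts where 37.0 were expected from background, and it was the only member found in that library.

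The anterior gene HOXA4 was on in SW480 cells alone, at 1.23 CPM. Over the lines HOXA4 ranged from 0.341 CPM in WiDr to 15.4 CPM in SNU-C1 vesicles with a median of 2.30, and from 0.121 CPM in SNU-C1 to 1.23 CPM in SW480 cells with a median of 0.369. The library highest in vesicles was thus the one lowest in cells. Its vesicle counts over all lines summed to 187, where 193 were expected from background. HOXA2, further toward the anterior end, was on in 4 lines, and HOXA6, from the middle of the cluster, in 7.

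HOXB7 is a gene of the middle of the HOXB cluster. In vesicles HOXB7 measured 67.5 CPM in SW480, 131 in COLO-201, 64.8 in HT-29, 68.0 in HCT 116, 67.4 in LS513, 116 in LS1034, 67.8 in LoVo, 28.7 in WiDr, 65.4 in LS123 and 7.44 in SNU-C1. In cells it measured 44.3 CPM in SW480, 43.0 in COLO-201, 54.3 in HT-29, 45.0 in HCT 116, 30.2 in LS513, 95.7 in LS1034, 42.8 in LoVo, 40.0 in WiDr, 54.4 in LS123 and 25.5 in SNU-C1. Vesicles were above cells in 8 of 10 lines, the exceptions being WiDr and SNU-C1. HOXB7 was found in vesicles of 9 lines, more than any other member.

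HOXB9, which takes part in rib patterning in mice, went the other way. In vesicles HOXB9 measured 22.1 CPM in SW480, 3.66 in COLO-201, 22.2 in HT-29, 12.8 in HCT 116, 36.6 in LS513, 33.1 in LS1034, 15.7 in LoVo, 24.2 in WiDr, 25.4 in LS123 and 27.5 in SNU-C1. In cells it measured 37.4 CPM in SW480, 7.76 in COLO-201, 74.8 in HT-29, 21.6 in HCT 116, 43.7 in LS513, 182 in LS1034, 22.6 in LoVo, 79.5 in WiDr, 19.6 in LS123 and 88.6 in SNU-C1. Vesicles were below cells in 9 of 10 lines, with LS123 the exception, and the ranges of the compartments overlapped. HOXB6, which lies further toward the anterior end, ranged from 3.90 CPM in HCT 116 to 33.2 CPM in SNU-C1 vesicles with a median of 15.9, and from 4.93 CPM in HCT 116 to 66.1 CPM in LS1034 cells with a median of 21.8.

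HOXB2, an anterior gene that acts in the hindbrain of mouse embryos, was on in 5 lines. It measured 7.97 CPM in SW480, 17.6 in COLO-201, 5.30 in HT-29, 9.55 in WiDr and 17.1 in LS123 vesicles, against 8.56 CPM in SW480, 7.41 in COLO-201, 4.35 in HT-29, 3.29 in WiDr and 1.11 in LS123 cells. In the other 5 lines HOXB2 was between 1.30 and 6.86 CPM in vesicles and between 0.107 and 0.727 CPM in cells. The LS1034 cells stood out for the HOXB cluster, with the highest levels of HOXB6, HOXB7, HOXB8 (18.8 CPM) and HOXB9 among the 10 lines. In LS1034 vesicles HOXB6, HOXB7 and HOXB9 were each the second highest of the 10. HOXB8 (12.4 CPM) was below LS123 and SNU-C1 there, with 56 counts where 36.7 were expected from background. HOXB4 was on in 8 lines and HOXB5 in 9, the exception for HOXB5 being COLO-201 with 0.709 CPM in vesicles and 0.490 CPM in cells.

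HOXC6, a central HOXC gene, was the most widespread of its cluster, on in 9 lines. It ranged from 2.26 CPM in LS513 to 14.2 CPM in LS1034 vesicles with a median of 5.58, and from 0.454 CPM in SNU-C1 to 9.85 CPM in HT-29 cells with a median of 4.52. HOXC9 and HOXC10, which act in spinal motor neuron identity in mice, were on in HCT 116, LS123 and SW480 and in no other line. HOXC9 measured 15.6 CPM in HCT 116, 9.28 in LS123 and 6.44 in SW480 vesicles, against 4.57 CPM in HCT 116, 5.08 in LS123 and 3.29 in SW480 cells. In the other 7 lines it was 0.177 to 12.6 CPM in vesicles and 0 to 0.508 CPM in cells. The group of vesicle libraries without HOXC9 in their cells therefore reached into the range of those with it, the 12.6 CPM being that of SNU-C1, where 22 counts were seen and 22.7 expected from background.

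HOXC10 measured 0.433 CPM in HCT 116, 7.81 in LS123 and 22.3 in SW480 vesicles, against 2.24 CPM in HCT 116, 2.06 in LS123 and 22.1 in SW480 cells. In the other 7 lines HOXC10 was 0.287 to 9.55 CPM in vesicles and 0 to 0.952 CPM in cells. SW480 stood apart in both compartments, and its 510 vesicle counts compare with 15.3 expected from background. HOXC8, which shapes thoracic vertebrae in mice, was on in HT-29, WiDr and SW480. It measured 3.24 CPM in HT-29, 14.7 in WiDr and 5.83 in SW480 vesicles, against 1.39 CPM in HT-29, 1.67 in WiDr and 4.19 in SW480 cells. In the remaining 7 lines HOXC8 was 0 to 20.03 CPM in vesicles and 0.0303 to 0.764 CPM in cells.

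The anterior HOXC genes were restricted to the related lines HT-29 and WiDr. HOXC4 measured 1.15 CPM in HT-29 and 8.19 in WiDr vesicles, against 2.78 CPM in HT-29 and 4.03 in WiDr cells, and in the other 8 lines it was 0.131 to 3.33 CPM in vesicles and 0 to 0.306 CPM in cells. HOXC5 was on in WiDr alone, with 1.36 CPM in vesicles and 1.39 CPM in cells, and was 0 to 6.86 CPM in vesicles and 0 to 0.394 CPM in cells of the other 9 lines. HOXC11, a posterior gene, was on in COLO-201 and SW480, with 1.83 CPM in COLO-201 and 0.438 in SW480 vesicles, against 1.73 CPM in COLO-201 and 1.32 in SW480 cells. In the other 8 lines HOXC11 was 0.452 to 13.7 CPM in vesicles and 0 to 0.349 CPM in cells. HOXC11 had the lowest Pearson's r of vesicles with cells over the lines, -0.48 (n = 10), and with the expected background subtracted its r was 0.72. The latter rests on COLO-201, the only line with more HOXC11 vesicle counts than expected from background (31 where 15.6 were expected). By Spearman's rho HOXC5 (-0.44) and HOXA4 (-0.44) were lower than HOXC11 (-0.36). HOXC13, the terminal HOXC gene, was on in 5 lines, at most at 1.98 CPM in SW480 cells.

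Of the HOXD genes, HOXD8, from the middle of the cluster, was on in 4 lines. It measured 19.1 CPM in LoVo, 7.37 in HCT 116, 5.37 in LS123 and 3.02 in SW480 vesicles, against 29.5 CPM in LoVo, 6.02 in HCT 116, 2.60 in LS123 and 4.04 in SW480 cells. In the other 6 lines HOXD8 was 0.755 to 12.6 CPM in vesicles and 0 to 0.671 CPM in cells. LoVo was the top line for HOXD8 in vesicles as in cells. HOXD1 and HOXD3, from the anterior end of the cluster, were on in LoVo alone, at 1.90 and 1.34 CPM in its cells.

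HOXD13, the terminal HOXD gene, which patterns digits in humans and mice, was on in LoVo, LS1034, WiDr and SW480. It measured 10.5 CPM in LoVo, 6.88 in LS1034, 9.55 in WiDr and 1.88 in SW480 vesicles, against 14.6 CPM in LoVo, 2.07 in LS1034, 3.95 in WiDr and 3.74 in SW480 cells. In the other 6 lines it was 0 to 8.01 CPM in vesicles and 0 to 0.835 CPM in cells. HOXD9 was on in SW480 and LS1034, with 4.21 CPM in SW480 and 6.21 in LS1034 vesicles, against 10.1 CPM in SW480 and 2.83 in LS1034 cells, and was 0.217 to 20.6 CPM in vesicles and 0 to 0.104 CPM in cells of the other 8 lines. HOXD11, which acts in the mouse forearm, was on in SW480 alone, with 1.49 CPM in vesicles and 1.59 CPM in cells, and was 0 to 7.33 CPM in vesicles and 0 to 0.153 CPM in cells of the other 9 lines. For HOXD9 and HOXD11 the lines with the gene on lay inside the range of the lines without it in vesicles and above that range in cells.

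Members with a level above the background were then counted. A member was called found in a vesicle library with at least 10 counts and at least 3 times the expected background. Over the 360 combinations of a member and a line, 214 were on in cells, and 99 of these (46.3%) were found in the vesicles of the same line, beside 60.7% for all genes of the table. Within classes of cell level the order was not the same throughout. At 1 to 5 CPM in cells 25.3% of member combinations were found, beside 20.2% for all genes. At 5 to 20 CPM it was 55.4% beside 42.6%, and at 20 CPM or more 66.1% beside 74.5%. No test was made of these differences. The class of 20 CPM or more has no upper bound, so levels within it are not matched. Of the 146 combinations that were off in cells, 3 (2.05%) were found, beside 4.18% for all genes. In the 5 lower-background lines, a split chosen with these backgrounds known, 84 of 109 combinations on in cells were found (77.1%, beside 83% for all genes), and in the 5 others 15 of 105 (14.3%, beside 38.5%). With the requirement of 10 counts alone, 96.7% of combinations on in cells but also 59.6% of those off passed.

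By line, members found were 17 of 18 on in COLO-201 (94.4%), 20 of 23 in HT-29 (87.0%), 23 of 29 in SW480 (79.3%), 17 of 22 in HCT 116 (77.3%), 7 of 17 in LS513 (41.2%) and 7 of 20 in LS1034 (35%). They were 3 of 21 in LoVo (14.3%), 2 of 23 in LS123 (8.70%), 2 of 25 in WiDr (8%) and 1 of 16 in SNU-C1 (6.25%). The share was on the whole lower at higher background, and depth moved with it, at 4.62 to 24.4 M counts in the lower-background vesicle libraries and 1.75 to 4.51 M in the others. A member has to reach 3 times the background to be found, so the rule itself asks for more counts where the background is higher. For all genes on in cells the share found was 87.7% in COLO-201, 89.2% in HT-29, 86.7% in SW480, 80% in HCT 116, 70.8% in LS513, 54.3% in LS1034, 42.7% in LoVo, 29.8% in LS123, 41.4% in WiDr and 24.2% in SNU-C1, so it was also lower in the lines of higher background. The part of depth was not tested.

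**Figure D2:**
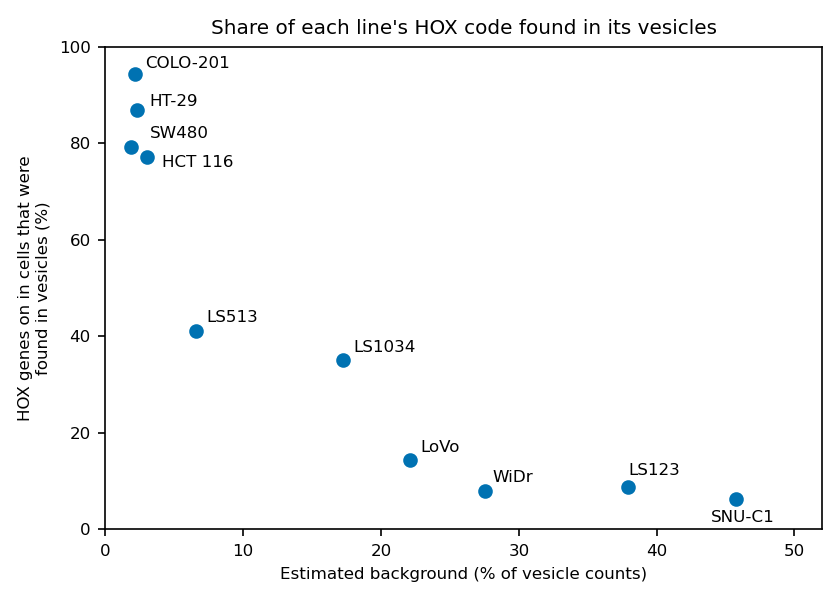
Share of the members on in a line's cells that were found in its vesicles (percent, vertical axis) against the estimated background as a percentage of the line's vesicle counts (horizontal axis), 1 point per line. COLO-201 stands at 94.4% found with 2.13% background and SNU-C1 at 6.25% found with 45.8% background; found means at least 3 times the background, so the bar rises along the horizontal axis.

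By cell level in the lower-background lines, 22 of 44 combinations at 1 to 5 CPM in cells were found (50%), 35 of 38 at 5 to 20 CPM (92.1%) and 27 of 27 at 20 CPM or more (100%). For all genes in these lines the shares were 36.7%, 72.6% and 95.6% in the same classes, the last again without an upper bound. By cluster in the same lines, 36 of 45 HOXA (80%), 36 of 42 HOXB (85.7%), 9 of 17 HOXC (52.9%) and 3 of 5 HOXD combinations (60%) on in cells were found. In the lines of higher background these were 9 of 46 HOXA, 6 of 40 HOXB, 0 of 11 HOXC and 0 of 8 HOXD combinations. Of the members, 26 were found in the vesicles of at least 1 line that had them on, namely 10 HOXA, 9 HOXB, 4 HOXC and 3 HOXD genes. Those among them that were on in 5 lines or fewer were HOXA2 in HT-29, HOXB2 in COLO-201, HT-29 and SW480, HOXC8 in HT-29 and SW480, HOXC9 in HCT 116 and SW480, HOXC10 in SW480, HOXD8 in HCT 116, HOXD9 in SW480 and HOXD13 in SW480. LoVo, whose cells had the most HOXD8 and HOXD13, did not reach 3 times the background for either in vesicles, with 62 HOXD8 counts where 27.7 were expected and 34 HOXD13 counts where 21.2 were expected.

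The 3 findings without a cell level of 1 CPM were HOXC8 in LoVo, HOXD8 in COLO-201 and HOXD13 in HT-29. HOXC8 had 65 counts in LoVo vesicles, where 18.5 were expected from background, and 2 counts in LoVo cells. HOXD8 had 62 counts in COLO-201 vesicles with 15.6 expected, against 15 counts (0.433 CPM) in COLO-201 cells. HOXD13 had 67 counts in HT-29 vesicles with 13.7 expected, against 24 counts (0.835 CPM) in HT-29 cells, while the related WiDr cells had HOXD13 at 3.95 CPM.

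As a check on the prediction, members off in a line's cells had together 2253 vesicle counts where 3435 were expected, a ratio of 0.656. By line this ratio was 0.271 (SW480) to 1.15 (COLO-201), so the prediction was above the counts of silent members in most lines. The members on in no line were further below it, HOXD4 with 11 vesicle counts over all lines where 169 were expected and HOXC12 with 71 where 344 were. For members on in cells the ratio was 22.6 in COLO-201, 14.2 in SW480, 14.1 in HT-29, 12.7 in HCT 116, 5.85 in LS513, 3.28 in LS1034, 2.20 in LoVo, 1.44 in WiDr, 1.33 in LS123 and 1.33 in SNU-C1. Members on exceeded members off in each of the 10 lines on this ratio.

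**Figure D3:**
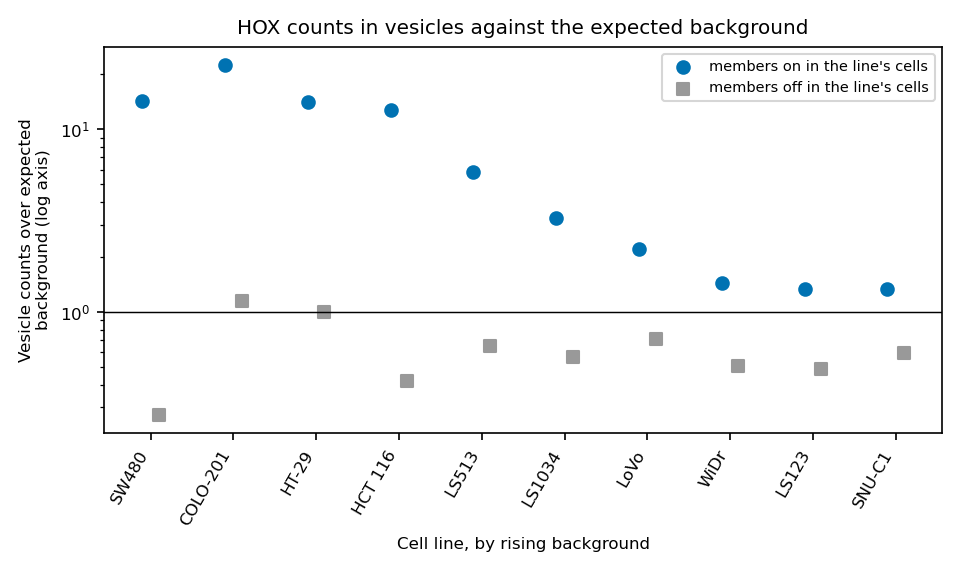
Vesicle counts of the members divided by the counts expected from background (log axis), summed per line over members on in the line's cells (circles) and over members off (squares), with lines ordered by rising background. Members on run from 22.6 in COLO-201 to 1.33 in SNU-C1, and members off from 0.271 in SW480 to 1.15 in COLO-201.

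The vesicle HOX profile of each line was also set against the cell profile of every line by Spearman's rho over the 36 members, as a description. The line's own cells ranked first for 8 of 10 vesicle libraries, WiDr (rank 3) and LS123 (rank 6) being the exceptions. The rho with the own cells averaged 0.809 ± 0.122 (SD, n = 10), where the median rho with the other lines averaged 0.697. The rho with the own cells was highest for SW480 (0.948) and HT-29 (0.928) and lowest for SNU-C1 (0.542). The lead over the best other line was small in SNU-C1 (0.542 against 0.536 for LS513), HCT 116 (0.875 against 0.864 for LS123), HT-29 (0.928 against 0.914 for LS513) and LoVo (0.753 against 0.738 for LS123). It was widest in SW480 (0.948 against 0.797 for HCT 116) and COLO-201 (0.867 against 0.761 for LS513). With Pearson's r 9 libraries had their own cells first, and with Pearson's r at a pseudocount of 0.1 CPM in place of 1 only 5 did.

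Over the lines, each member's vesicle level was compared with its cell level by Pearson's r on log2(CPM + 1), n = 10 lines. The median over the 34 members on in at least 1 line was 0.437, beside 0.396 for the 13909 genes on in at least 1 line, and 8 of the 34 (23.5%) had an r of at least 0.6, beside 25.6% of all such genes. The 8 were HOXA7, HOXA9, HOXA10, HOXA13, HOXB6, HOXB7, HOXB9 and HOXC9. A share near that of all genes says nothing particular about the members. After subtraction of the expected background the median was 0.595, and in the 5 lower-background lines it was 0.680. Subtraction left some members with vesicle counts in a single line, as for HOXD11 in SW480 and HOXC11 in COLO-201.

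**Figure D4:**
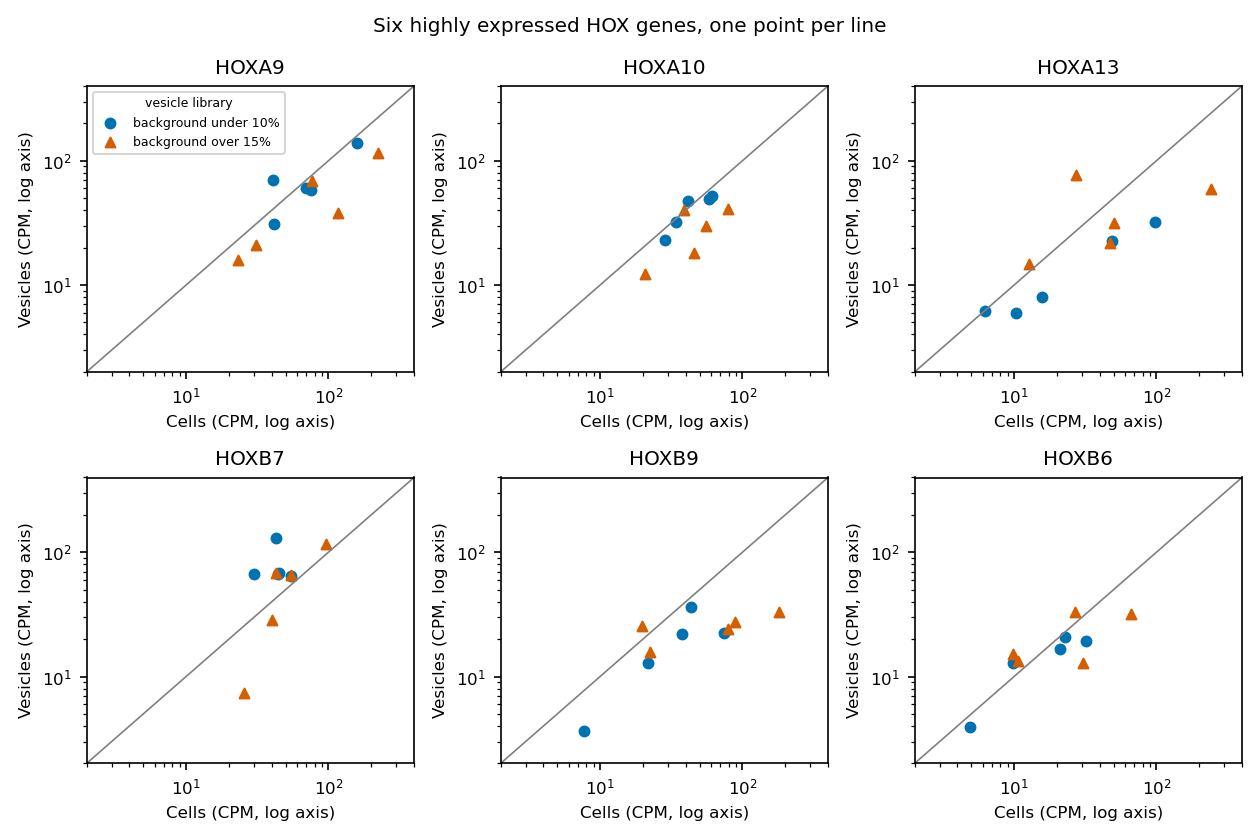
Vesicle level (CPM, vertical log axis) against cell level (CPM, horizontal log axis) of HOXA9, HOXA10, HOXA13, HOXB7, HOXB9 and HOXB6, 1 point per line, circles for the lower-background lines and triangles for the others, with the line of equality. HOXB9 lies below equality in 9 of 10 lines and HOXB7 above it in 8 of 10.

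Vesicles were compared with cells by edgeR's quasi-likelihood test with TMM scaling, line as a block and Benjamini-Hochberg adjustment over all genes tested. Lower in vesicles were 5 HOXA and HOXB genes that were on in every line, and higher were 9 genes that were off in the cells of 5 or more lines. Of the 36 members, 32 passed the filter on low counts, HOXC12, HOXD1, HOXD3 and HOXD4 did not, and 16 members were at or above the filter's 0.407 CPM in all cell libraries. The others that passed did so with the help of libraries in which they were high, so their counts are not a sample of all members. Each member called higher reached that limit in more vesicle libraries than cell libraries, so the filter itself favoured a higher call. Of the 32, 14 were called in either direction, 5 lower and 9 higher. Among all 15130 genes tested 56.7% were called, 28.1% lower and 28.6% higher. The share of the 32 called higher was near that of all genes, and the share called lower was below it. The count of higher members therefore says nothing particular about the members. The median log2 fold change was 0.67 over the 32 and 0.011 over all genes.

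The 5 lower members were HOXA9, HOXA10, HOXA13, HOXB6 and HOXB9. HOXB9 changed by a log2 fold of -1.51 ± 0.29 (SE, adjusted p = 0.000523) and HOXA13 by -1.13 ± 0.28 (adjusted p = 0.00311). HOXA10 changed by -0.90 ± 0.25 (adjusted p = 0.00603), HOXA9 by -0.87 ± 0.27 (adjusted p = 0.0120) and HOXB6 by -0.67 ± 0.27 (adjusted p = 0.0436). By library-size CPM vesicles were below cells in 9 of 10 lines for HOXA9 and HOXB9, in 8 for HOXA10 and HOXA13 and in 6 for HOXB6. Without LoVo only HOXB9 remained called lower, at -1.19 ± 0.35 (adjusted p = 0.0125), and the median of all genes moved to 0.35. With library size as the only scaling the median of all genes was 0.48, and with upper-quartile scaling, where it was 0.76, HOXB6 turned to 0.073. HOXB9 was called lower in each of the 19 alternative settings run, with adjusted p from 0.000264 to 0.0300.

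HOXB7 was not called, with a log2 fold change of -0.073 ± 0.34 (adjusted p = 0.868), although it was above its cells in 8 of 10 lines by library-size CPM. SNU-C1 had the lowest level of it in vesicles, with 13 vesicle counts where 17.9 were expected from background. HOXA11, HOXB3 and HOXB13, also on in all lines, were at -0.56 ± 0.31, -0.38 ± 0.38 and -0.073 ± 0.39 and were not called.

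The 9 higher members were HOXA4, HOXB2, HOXC4, HOXC5, HOXC8, HOXC9, HOXC11, HOXD9 and HOXD11, all off in the cells of at least 5 lines. Each passed the filter with the help of its vesicle libraries, so these calls are no separate support for higher levels in vesicles. HOXD9 had the highest log2 fold change, 5.75 ± 1.33 (SE, adjusted p = 0.00196), followed by HOXD11 at 5.08 ± 1.17 (adjusted p = 0.00195) and HOXC11 at 3.95 ± 1.32 (adjusted p = 0.0190). The other 6 lay between 1.93 for HOXA4 and 3.23 for HOXC5, with adjusted p from 0.0163 to 0.0487. For 6 of the 9, all but HOXA4, HOXB2 and HOXC8, from 2 to 5 cell libraries held 0 counts, so their fitted folds depend on the prior count and are no bounds. Summed over the 10 vesicle libraries, HOXD9 had 329 counts where 238 were expected from background, HOXD11 158 where 280 were and HOXC11 181 where 272 were. HOXC4 had 100 where 202 were expected, HOXC5 160 where 200.5 were and HOXA4 187 where 193 were. The counts of HOXB2 (752 where 244 were expected), HOXC8 (437 where 159 were) and HOXC9 (308 where 175 were) were further above the background.

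With the expected background subtracted from the counts, 20 members were tested, 0 were higher by edgeR (15.2% of all genes were) and 1, HOXB9, was lower (19.2% of all genes were). Of the members called higher on the counts as deposited, only HOXB2 and HOXC8 passed the filter here, so the others could not be called. In this fit 3 members had an unadjusted p under 0.05, and HOXB9 stood at -1.25 ± 0.33 (adjusted p = 0.00964), HOXB2 at -0.49 ± 0.89 and HOXC8 at 2.16 ± 1.51. In the 5 lower-background lines 31 members were tested and 0 were higher by edgeR (19.5% of all genes were), with 5 at an unadjusted p under 0.05. There 2 were lower (19% of all genes were), HOXB9 at -1.02 (adjusted p = 0.0209) and HOXA13 at -1.01 (adjusted p = 0.0403). DESeq2 on all 10 lines with the counts as deposited called 22 of 36 members higher (46.8% of all genes were) and 2 lower (18.6% of all genes were). Without LS513 4 members were called higher (26.1% of all genes were), and without LS1034 5 (25.9% were).

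**Figure D5:**
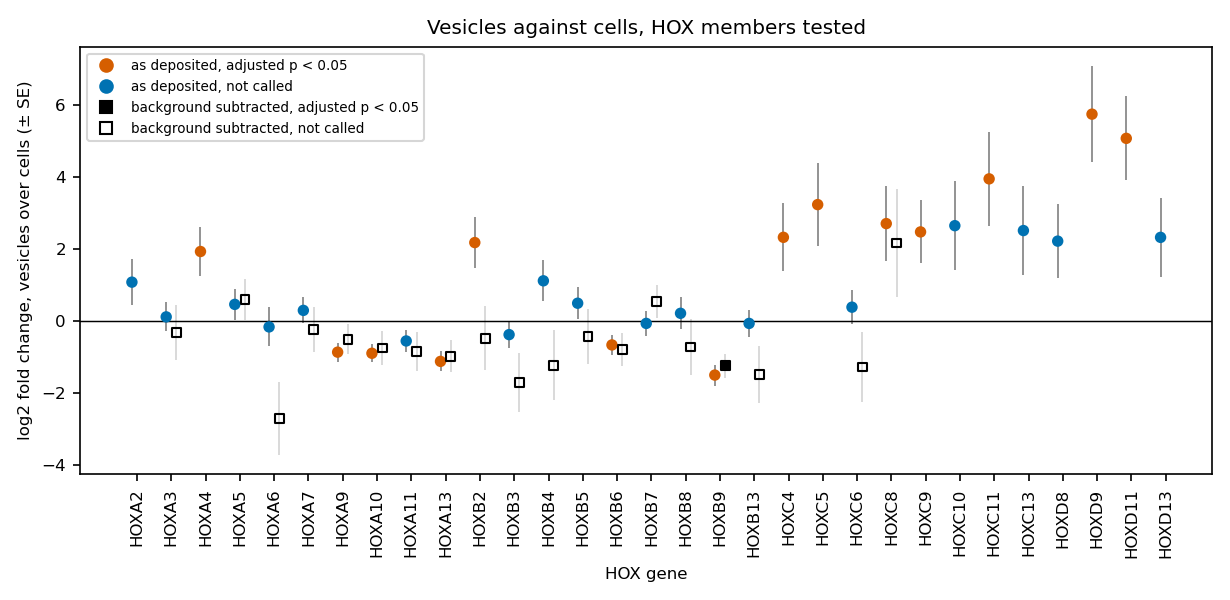
Log2 fold change of vesicles over cells with its SE for 31 of the 32 members tested on the counts as deposited (circles, filled orange at an adjusted p under 0.05) and for 19 of the 20 tested after background subtraction (squares, filled black when called). After subtraction HOXB9 is the only member called, at -1.25.

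Markers of other cell types were also called higher in the vesicle libraries, as were 28.6% of all genes. Of the fibroblast markers 4 of 5 tested were called higher, summing to 19.3 to 390 CPM in vesicles and 0.525 to 17.8 CPM in cells, and 2 of 2 endothelial markers were, summing to 4.85 to 123 CPM in vesicles and 0 to 4.26 CPM in cells. So were 5 of 5 leukocyte markers, at 9.75 to 141 CPM in vesicles and 0.347 to 16.9 CPM in cells, and 2 of 2 erythroid markers, at 2.25 to 297 CPM in vesicles and 0.0696 to 1.39 CPM in cells. In cells, COL1A2, COL3A1 and DCN of the fibroblast markers were at 1 CPM or more in 0 libraries, PDGFRB in 2, LUM in 3 and COL1A1 in 5. Of the endothelial markers KDR was at that level in 0 cell libraries and VWF in 2, and of the erythroid markers HBB and ALAS2 in 0 and HBA1 in 2. The leukocyte markers were at that level in 0 to 5 cell libraries each. Summed over the vesicle libraries, COL3A1 (437 counts where 483 were expected), DCN, LUM and ALAS2 were below the expected background. KDR (379 where 371 were expected) and PTPRC (316 where 304 were) were near it. The other markers were above it, among them COL1A1 (2241 where 909 were expected), VWF (1758 where 877 were) and HBB (1294 where 126 were). The part of such transcripts in the HOX values of vesicles was not tested.

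The lines labelled cecum were compared with those labelled colon within each compartment by the same test, 2 lines against 8, since HOX genes carry position along the gut. In vesicles 35 members were tested and 0 were called by edgeR, with 0 at an unadjusted p under 0.05, and DESeq2 called 0 of the 14 it gave an adjusted p. In cells 31 members were tested and 0 were called by edgeR, with 3 at an unadjusted p under 0.05, and DESeq2 called 0. Of all genes, 0.00595% were called in vesicles and 0% in cells. In simulated counts of this design, 4-fold changes were recovered for 1.02% of changed genes in vesicles and 3.61% in cells, beside 57.9% for vesicles against cells, so sizeable differences by site could be missed.

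The 3 members below 0.05 before adjustment in cells were HOXB8, HOXC11 and HOXC5. HOXB8 measured 18.8 CPM in LS1034 and 3.43 CPM in LS513 cells, against 2.11 to 7.07 CPM in the 8 colon lines, with a log2 fold change of 1.56 ± 0.66 (SE) and an adjusted p of 0.735. LS1034 alone lay above the colon lines. HOXC11 and HOXC5 had 0 counts in the cells of LS1034 and LS513, a limit of 0.0876 and 0.121 CPM, against 0 to 1.73 CPM for HOXC11 and 0 to 1.39 CPM for HOXC5 in the colon lines, and their adjusted p were 0.729 and 0.736. In vesicles HOXB8 measured 12.4 CPM in LS1034 and 4.90 CPM in LS513, against 2.66 to 16.6 CPM in the colon lines, with a log2 fold change of 0.32 ± 0.82.

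Genes that work with or on the HOX clusters were taken from lists of their own. Of 9 HOX cofactors of the PBX, MEIS and PKNOX families, which bind DNA together with HOX proteins, 4 were higher and 1 lower in vesicles than in cells. PKNOX2 had a log2 fold change of 8.70 ± 1.04 (adjusted p = 8.93e-06) with 9 counts in all cell libraries together, and its 634 vesicle counts compare with 507 expected from background. The caudal regulators CDX1 and CDX2, intestinal homeodomain factors that control HOX genes in mouse embryos, were not called, at 1.15 ± 0.68 and 0.21 ± 0.53. CDX2 ranged from 4.91 CPM in COLO-201 to 153 CPM in SNU-C1 vesicles, and from 0.173 CPM in COLO-201 to 154 CPM in SNU-C1 cells, so the order of the extreme lines was the same.

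Of 17 Polycomb repressors 11 were lower in vesicles and the others were not called, led by RBBP4 at -1.33 ± 0.28 (adjusted p = 0.000908) and RBBP7 at -1.30 ± 0.29 (adjusted p = 0.00147), both histone-binding subunits that other chromatin complexes also hold. Of 12 trithorax activators 3 were higher and 5 lower, led by MEN1 at -1.34 ± 0.19 (adjusted p = 3.54e-05) and KDM6A, a histone demethylase, at -1.98 ± 0.32 (adjusted p = 0.000122). Of 17 genes next to the clusters that were tested, 4 were higher and 4 lower. EVX2, the homeobox gene beside HOXD13, had 7.07 ± 0.95 (adjusted p = 2.38e-05) with 29 counts in all cell libraries together and 376 vesicle counts where 334 were expected from background, and LNPK, a membrane protein gene on the far side of EVX2, had -1.81 ± 0.25 (adjusted p = 2.92e-05). For comparison, 28.6% of all genes were higher and 28.1% lower.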

How the data were processed

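RNA of vesicles and cells from 10 colorectal cancer lines was analysed (20 libraries, 1 per line and compartment). The authors deposited raw counts of reads per gene for 17113 symbols. Per the submitters' processing notes, reads were handled with STAR and featureCounts on hg19; their versions, the annotation, the strand setting and any filters are not given in the sources used here. Each of the 20 columns was matched to a library by its title, and 0 columns stayed unmatched. Lines and compartments came from the labels.

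Counts were compared with edgeR 4.0.16 in R 4.3.3 by the quasi-likelihood test (robust fit, TMM scaling, filterByExpr) over all genes, with Benjamini-Hochberg adjustment and a threshold of 0.05. DESeq2 1.42.0 was an alternative. Line was a block for vesicles against cells. The libraries of 1 number come from the same line per the labels, and their deviations from the compartment means correlated with r of 0.129 to 0.578 in the 10 lines. Fits were tested on simulated counts.

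The background model was a Poisson log-linear fit on log exonic length, GC content and its square in 2075 genes, HOX genes left out, with the top 1% of counts capped. Lengths and GC content were from GENCODE release 29 (GRCh38), matched by symbol for 17104 genes (99.9%), all 36 members among them. Counts were scaled to library size for CPM, with a pseudocount of 1 on log scales. Precision per library follows from its total and covers counting error alone, because no molecular identifiers tell PCR copies apart.

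The members and lists were chosen with earlier results of these data known. Named with their levels are the 3 members of each cluster with the highest mean CPM in cells, members called in a test, members on in 1 to 3 lines that reach 5 CPM, and those of highest and lowest agreement over lines; levels are given per line where most informative and otherwise for the lines with the gene on and as ranges. In each related list, the 2 genes of smallest adjusted p are named, except that 1 cofactor is not reported here, nor is 1 member on its own; genes absent from the table, such as CDX4, were not analysed here. Alternatives were other scalings, no filter, no block, DESeq2, background subtraction, fewer lines and other cut-offs. Those that scale the background to the off members, subtract it in the site comparison, or restrict the found share to 5 lines were chosen after seeing the data.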

Additional observations from a re-analysis of the deposited data

Results flagged for a closer look

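In 22 of the 70 groups of 10 libraries looked at (35 members in 2 compartments), the top library stood apart from the rest by Dixon's gap test at the 95% level. Chance flags about 1 in 20 such groups, and CPM values are skewed.

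In 7 groups of vesicle libraries this was seen. SNU-C1 vesicles, which have the highest background and 1.75 M counts, stood above the other vesicles for HOXA4 (15.4 CPM), HOXC5 (6.86 CPM), HOXC12 (12.6 CPM), HOXD1 (16.0 CPM) and HOXD4 (2.29 CPM). None of these 5 was found above 3 times the expected background in that library. WiDr vesicles stood apart for HOXC4 (8.19 CPM), with 24 counts where 32.4 were expected, and SW480 vesicles for HOXC10 (22.3 CPM), with 510 counts where 15.3 were expected.

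In 15 groups of cell libraries it was seen, in 4 lines. LoVo cells stood apart for HOXA13 (243 CPM), HOXD1 (1.90 CPM), HOXD3 (1.34 CPM), HOXD4 (0.160 CPM), HOXD8 (29.5 CPM) and HOXD13 (14.6 CPM), so 5 of the 7 HOXD genes had their highest cell level in LoVo. For HOXD4 this rests on 6 counts in LoVo cells against 2 in SNU-C1 cells. HOXD3 and HOXD4 share exonic bases with the same readthrough gene, so they are not separate cases. LS1034 cells stood apart for HOXB6 (66.1 CPM), HOXB7 (95.7 CPM), HOXB8 (18.8 CPM) and HOXB9 (182 CPM), which are neighbours in the cluster. SW480 cells stood apart for HOXC8 (4.19 CPM), HOXC10 (22.1 CPM), HOXD9 (10.1 CPM) and HOXD11 (1.59 CPM), and WiDr cells for HOXC5 (1.39 CPM). SW480 HOXC10 was the only case seen in vesicles and cells of the same line.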

How the results depend on the processing

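The number of members called higher in vesicles, 9 as reported, was 5 without the replicate block (22.9% of all genes were called higher), 19 with upper-quartile scaling (46%), 22 with DESeq2 (46.8%), and 0 with background subtracted (15.2%) and 0 in the 5 lower-background lines (19.5%). With background subtracted, only HOXB2 and HOXC8 of the 9 were tested. Leaving out 1 line at a time gave 4 (without LS513) to 11 called higher. The number called lower, 5 as reported, was 2 without the replicate block, with DESeq2 size factors, with DESeq2 and in the 5 lower-background lines, 1 with library size only, with upper-quartile scaling and with background subtracted, and 3 without WiDr and LS123, each of which resembles another line; of all genes 11.6 to 25.2% were called lower in these settings. Leaving out 1 line gave 1 (without LoVo) to 5. DESeq2 size factors brought the all-gene median to 0.38 on the log2 scale. The direction turned for HOXB2 with background subtracted (-0.49) and for HOXB6 with upper-quartile scaling (0.073); the cause of these changes was not tested. The share of members on in cells that were found, 46.3%, was 96.7% at 10 counts or more alone and 77.1% in the 5 lower-background lines, and ranged from 41.1 to 51.3% without 1 line; it was 54.7% at 2 times and 30.8% at 5 times the background and 59.8% with the background scaled to the off members. Own cells ranked first for 5 libraries with Pearson's r at a pseudocount of 0.1, and for 7 to 8 without 1 line. The median agreement over lines was 0.353 to 0.509 without 1 line. No site call appeared under any alternative run. With 1 library per line, a count of 0 in the SNU-C1 vesicle library (1.75 M counts) still allows a level of up to 1.72 CPM.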
